A study of Mus musculus with 7 samples.

Results

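Immediate-early genes were examined in sorted β-cells of mice with and without Raptor, the mTORC1 subunit that recruits the complex's substrates. The genes were Fos, Fosb, Junb, Jund, Ier2, Klf6, Zfp36, Nr4a2, Dusp1 and Ptgs2, found by platform symbol, and all 10 were measured, each by 1 of the 22198 transcript clusters on the array. The KO group held 4 arrays of Raptor-/-; RIP-Cre; Rosa26GFP mice (βRapKO GFP) and the WT group 3 arrays of Raptor+/+; RIP-Cre; Rosa26GFP littermates. All mice were 2 weeks old and C57BL/6 per the labels, with the RIP-Cre line of mixed C57BL/6J:129/SvJ background per the methods, and both groups carried the Cre transgene and the GFP reporter. Cre was driven by the rat insulin promoter, so deletion was directed to insulin-expressing cells. The RNA on each array came from a pool of animals that shared a genotype. Islets were digested with collagenase, dispersed with trypsin and sorted for GFP before RNA was extracted. No sample of undissociated islets was analysed here, so the response to the isolation cannot be told apart from the level in the animal.

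Immediate-early genes are transcribed within minutes of a stimulus, without need for new protein synthesis, through transcription factors that already sit in the cell, such as SRF with its ternary complex partners and CREB. Their products include the AP-1 subunits, which switch on later genes, and feedback inhibitors that end the response. They are induced in β-cells by glucose and cAMP, and they are known to rise in many tissues when cells are dissociated.

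The array medians lay between 5.52 and 5.66 on the deposited log2 scale. KO replicates 3 and 4 and WT replicate 3 correlated least with the rest, with a median Pearson r of 0.937, 0.924 and 0.933, against 0.954 to 0.961 on the remaining 4. The mean of 9 β-cell markers was 13.58 to 14.90 log2 units on KO arrays and 14.62 to 14.99 on WT arrays. Their median difference was -0.69, although 2 of the 9 averaged above WT. In limma 2 were lower in KO past 0.05 before adjustment and 0 after it. These were Slc2a2 (-1.94; exact permutation p = 0.0571), with every KO array below every WT array, and Slc30a8 (-0.96; exact permutation p = 0.143). The mean of the 8 measured acinar markers, genes of digestive enzymes of the exocrine pancreas, differed widely, at 11.36, 15.35, 10.01 and 18.39 on KO replicates 1 to 4 and 13.64, 17.22 and 9.05 on WT replicates 1 to 3. Mean signals of endothelial, leukocyte, mesenchymal and Schwann cell markers stayed between 4.46 and 6.41. Of the other pancreatic cells, 3 δ- and PP-cell markers averaged 14.45 to 15.66 on KO arrays and 13.18 to 14.80 on WT arrays, with all 3 above WT in the mean (median difference 0.91) and none past 0.05 in limma. The 4 α-cell markers averaged 11.99 to 12.33 on KO arrays and 11.94 to 12.30 on WT arrays, with Gcg at the upper limit throughout, and 5 duct markers 6.56 to 7.50 on KO arrays and 6.79 to 7.12 on WT arrays. The part of these cells in the readings was not tested. Rptor, the gene of Raptor, read 5.99, 5.96, 4.40 and 8.54 on KO arrays and 5.98, 5.26 and 6.08 on WT arrays. The deletion was therefore not visible at its transcript cluster, whose position relative to the deleted exons no source used here states, and groups follow the labels.

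RefSeq start sites on mouse build GRCm38.p6 were matched for 9 of the 10 genes, with Ier2 the exception. The 250 bases before the start are shown for Fos and Dusp1, which followed a like order over the arrays, for Nr4a2, which ran opposite to Fos, and for Ptgs2, the only one of the 10 genes without overlap between the groups. They lay at chr12:85473640-85473889 (plus strand) for Fos, chr17:26508473-26508722 (minus) for Dusp1, chr2:57124004-57124253 (minus) for Nr4a2 and chr1:150099781-150100030 (plus) for Ptgs2. Capitals mark matches, on either strand, to the cAMP response element (CRE) TGACGTCA, its half-site TGACG, which the full element contains, the TATA box TATAAA, and the EGR site GCGNGGGCG. The AP-1 site TGANTCA, the NR4A element AAAGGTCA and the CArG box, the SRF element, were searched as well.
Fos: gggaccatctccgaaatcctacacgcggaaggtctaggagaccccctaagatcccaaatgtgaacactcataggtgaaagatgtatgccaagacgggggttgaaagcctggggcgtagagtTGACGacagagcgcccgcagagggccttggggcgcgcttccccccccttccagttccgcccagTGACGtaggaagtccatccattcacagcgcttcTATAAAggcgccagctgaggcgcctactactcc
Dusp1: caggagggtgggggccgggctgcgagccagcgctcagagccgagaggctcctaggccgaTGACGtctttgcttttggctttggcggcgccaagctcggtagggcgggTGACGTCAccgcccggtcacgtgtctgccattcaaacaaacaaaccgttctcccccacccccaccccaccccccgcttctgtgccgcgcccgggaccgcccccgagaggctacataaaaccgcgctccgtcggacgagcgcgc
Nr4a2: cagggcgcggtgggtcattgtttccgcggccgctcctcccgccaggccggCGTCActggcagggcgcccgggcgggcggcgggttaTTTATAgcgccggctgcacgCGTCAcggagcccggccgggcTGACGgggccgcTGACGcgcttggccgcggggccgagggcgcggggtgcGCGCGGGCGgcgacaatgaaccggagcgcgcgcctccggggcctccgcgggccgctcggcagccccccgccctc
Ptgs2: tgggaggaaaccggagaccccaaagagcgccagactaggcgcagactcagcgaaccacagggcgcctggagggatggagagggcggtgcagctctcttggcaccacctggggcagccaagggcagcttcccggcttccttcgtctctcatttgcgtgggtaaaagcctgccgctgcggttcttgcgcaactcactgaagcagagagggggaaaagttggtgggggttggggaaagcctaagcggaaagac
Fos held 2 half-sites and a TATA box that began 33 bases before the start. Dusp1 held a separate half-site and a full CRE from 143 to 136 bases before the start, an element present in 1.55% of 32851 RefSeq promoters of the same length. Nr4a2 held 4 half-sites, which 17.77% of promoters carried at least once, and an EGR site (4.7%) besides. It also held the TATA box letters (12.37%) on the opposite strand, 164 to 159 bases before the start, unlike the position in Fos. None of the 7 motifs was in the Ptgs2 window. Of the promoters not printed, Zfp36 held a CArG box (1.47% of promoters) and an EGR site, Fosb an EGR site and a half-site, Junb a half-site, and Jund and Klf6 none. No AP-1 site (6.75% of promoters) and no NR4A element (1.34%) was found in the 9 windows. These matches are descriptions of letters. Sites outside these 250 bases were not searched, so the absence of a match does not mean that a gene lacks the element.

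The first question was whether loss of Raptor moved the immediate-early genes. No common shift was measured: 5 of the 10 genes averaged higher in KO and 5 lower, with a median difference of 0.06 log2 units beside 0.00 over all transcript clusters. After Benjamini-Hochberg adjustment in limma, 0 of the 10 genes and 0 of 22198 clusters (0%) passed 0.05. At an unadjusted p below 0.05, 1 of the 10 genes, Ier2, was higher in KO, beside 1.01% of all clusters, and 0 were lower, beside 1.17%. In 1 gene, Ptgs2, every KO array lay above every WT array, beside 1.98% of clusters, and in 0 genes every KO array lay below, beside 1.95%. P-values measure the spread between pools of animals, and the exact permutation test over the 35 splits of 7 arrays cannot give less than 0.0286. In these bulk samples, fewer cells that express a gene and less RNA per cell cannot be told apart.

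Among the AP-1 subunits, Fos, the partner that cannot dimerise with itself and needs a Jun protein to bind DNA, read 16.05, 13.06, 15.86 and 13.00 log2 units on KO arrays and 16.96, 13.94 and 15.65 on WT arrays. The arrays of each group fell into high and low readings, and the groups overlapped almost completely. Fos averaged 14.49 ± 1.69 in KO (SD, n = 4) and 15.52 ± 1.51 in WT (n = 3), a difference of -1.02 ± 1.02 (SE; exact permutation p = 0.486). Single arrays moved that value: it was -0.30 without WT replicate 1, -0.53 without KO replicate 4, -0.55 without KO replicate 2, -1.54 without KO replicate 1 and -1.81 without WT replicate 2. With the replicate number as a block it was also -0.53. KO replicate 4 is alone in its block, so a block estimate equals the one without that array. Fosb, a Fos relative, read 16.13, 15.49, 15.30 and 15.33 on KO arrays and 16.92, 15.62 and 15.81 on WT arrays. Replicate 1 was the highest of its group in both genotypes, and the groups overlapped through KO replicate 1 alone. The difference was -0.55 ± 0.38 (exact permutation p = 0.314), and -0.15 without WT replicate 1.

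Junb, a Jun protein often set against c-Jun in growth control, read 8.07, 8.18, 7.94 and 10.63 on KO arrays and 8.12, 7.55 and 8.40 on WT arrays. Only KO replicate 4 lay outside the WT range on the high side, and the difference was 0.68 ± 0.67 (exact permutation p = 0.571). Leaving out KO replicate 4 gave 0.04, and leaving out WT replicate 2 gave 0.44. Jund, the Jun protein with the most constant expression in many tissues, read 9.23, 9.70, 12.34 and 12.01 on KO arrays and 9.62, 9.79 and 9.93 on WT arrays. KO replicates 3 and 4 lay far above all other arrays and KO replicates 1 and 2 within or below the WT range, so the mean difference of 1.04 ± 0.78 (exact permutation p = 0.4) rested on a pair of arrays that also stood apart over the whole transcriptome. It was 0.54 without KO replicate 3, 0.65 without KO replicate 4, 1.57 without KO replicate 1, and -0.24 without KO replicates 3 and 4 and WT replicate 3.

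**Figure D1:**
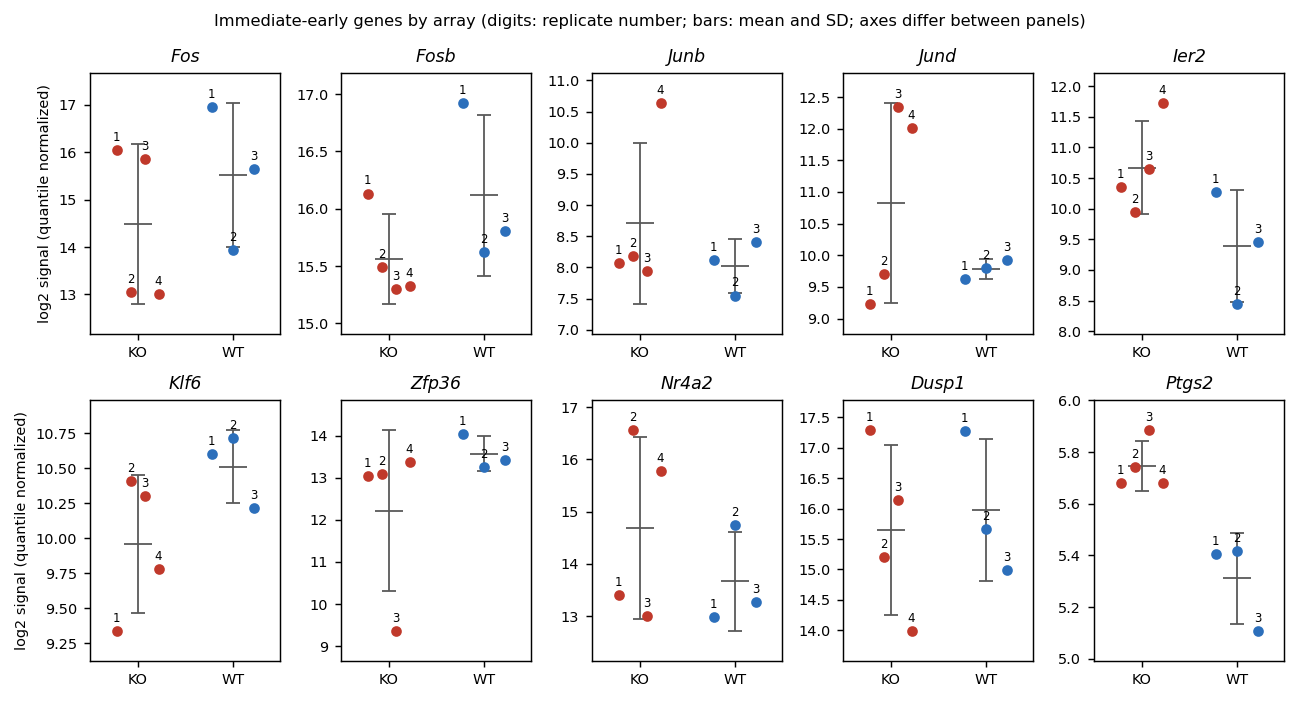
Quantile-normalized log2 signal of each gene on the 4 KO arrays (left, red) and 3 WT arrays (right, blue), with replicate numbers, group mean and SD, and a separate vertical axis for each gene. Ptgs2 is the only gene without overlap, Junb and Zfp36 each have 1 KO array far from the others, and Fos and Nr4a2 split both groups into high and low arrays.

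Of the other nuclear regulators, Ier2, a short-lived nuclear protein, read 10.35, 9.95, 10.65 and 11.72 on KO arrays and 10.27, 8.45 and 9.46 on WT arrays. KO replicates 1, 3 and 4 lay above all WT arrays and KO replicate 2 below WT replicate 1. Ier2 averaged 10.67 ± 0.76 in KO (SD, n = 4) and 9.39 ± 0.91 in WT (n = 3), which is 2.42-fold higher in KO. The difference of 1.27 ± 0.54 had a 95% confidence interval of 0.01 to 2.53 (limma p = 0.0486, adjusted p = 1; exact permutation p = 0.114). It lost the unadjusted threshold under 15 of 18 alternatives, with p between 0.0197 and 0.236 over all of them. Without WT replicate 2 it was 0.80 and in the 4 arrays left without the 3 that stood apart it was 0.79.

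Klf6, a zinc-finger factor of the Krüppel-like family, read 9.34, 10.41, 10.31 and 9.78 on KO arrays and 10.60, 10.72 and 10.22 on WT arrays, which overlapped. The difference was -0.55 ± 0.31 (exact permutation p = 0.171), and -0.35 without KO replicate 1. Nr4a2 (Nurr1), an orphan nuclear receptor induced by cAMP and calcium, read 13.41, 16.56, 13.01 and 15.77 on KO arrays and 12.99, 14.75 and 13.27 on WT arrays. KO replicates 2 and 4 were the highest of all arrays, while KO replicates 1 and 3 lay within the range of WT. The difference was 1.02 ± 0.94 (exact permutation p = 0.371), and its interval of -1.16 to 3.20 was wide in both directions. Leaving out KO replicate 2 gave 0.40, KO replicate 4 0.66 and WT replicate 1 0.68, while leaving out KO replicate 3 gave 1.58 and WT replicate 2 1.56.

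Among the feedback genes, Zfp36 (tristetraprolin), which binds AU-rich elements and speeds the decay of cytokine and early-gene mRNAs, read 13.04, 13.09, 9.37 and 13.38 on KO arrays and 14.03, 13.25 and 13.43 on WT arrays. KO replicate 3 alone was far below the rest, and the other 3 KO arrays, at 13.04 to 13.38, overlapped WT. The difference of -1.35 ± 0.95 (exact permutation p = 0.314) did not pass the test, and was -0.40 without KO replicate 3. Dusp1, a phosphatase that inactivates MAP kinases, read 17.28, 15.20, 16.13 and 13.996 on KO arrays and 17.27, 15.67 and 14.996 on WT arrays. Replicate 1 gave the highest reading in both groups, and the difference of -0.32 ± 0.83 (exact permutation p = 0.8) turned to 0.23 with the replicate number as a block. Leaving out KO replicate 4 gave the same 0.23, because that array is alone in its block. Leaving out WT replicate 1 gave 0.32 and KO replicate 2 -0.17, and at the other end KO replicate 1 gave -0.87 and WT replicate 3 -0.82.

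Ptgs2 (COX-2), the inducible enzyme that makes prostaglandin H2 from arachidonic acid, read 5.68, 5.74, 5.88 and 5.68 on KO arrays and 5.41, 5.42 and 5.11 on WT arrays. All KO arrays lay above all WT arrays, under each of the 4 normalizations tried. Ptgs2 averaged 5.75 ± 0.10 in KO (SD, n = 4) and 5.31 ± 0.18 in WT (n = 3), a difference of 0.43 ± 0.19 or 1.35-fold. It did not pass the limma threshold (p = 0.0559, adjusted p = 1), and its exact permutation p of 0.0286 is the smallest that these arrays allow. Its mean signal lay at the 49.3 percentile of all clusters, and how far that is above background is not given in the deposited values.

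**Figure D2:**
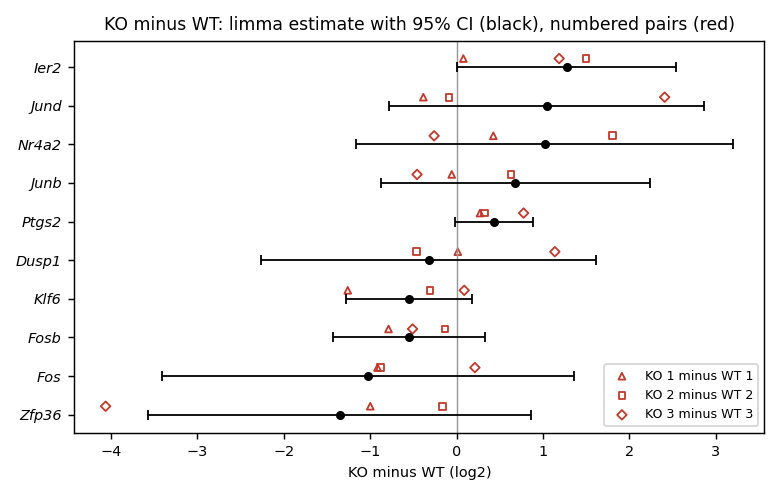
Difference KO minus WT in log2 units for each gene, as the limma estimate with its 95% confidence interval (black) and as the difference within equal replicate numbers (red, replicates 1 to 3). Only the interval of Ier2 lies above 0, from 0.01 to 2.53, and the estimates run from -1.35 for Zfp36 to 1.27 for Ier2.

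Deviations of arrays of equal replicate number correlated weakly between the 2 genotypes, at 0.16, 0.243 and 0.165, beside -0.181 to 0.0233 for unequal numbers. Centring each group on its own 3 arrays makes some matching of numbers come out positive. No source says what a number shares, so the pairing is not established. Differences were therefore also taken within numbers 1 to 3. For Ier2 they were 0.08, 1.499 and 1.19, and for Ptgs2 0.27, 0.32 and 0.78, so both were higher in KO in 3 of 3 pairs. For Fosb they were -0.79, -0.13 and -0.51, and for Zfp36 -0.999, -0.16 and -4.06, lower in KO in 3 of 3. The other 6 genes had differences of both signs, Fos with -0.91, -0.88 and 0.21 and Nr4a2 with 0.43, 1.81 and -0.26. The same sign in all 3 pairs was thus found in 4 genes, 2 higher and 2 lower in KO. That count was not compared with the share among all clusters. Signs of 3 pairs can agree by chance, so the count carries no result on genotype. With the number as a block, Ier2 differed by 0.92, still past the unadjusted 0.05 in limma, and Ptgs2 by 0.46, not past it.

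The second question was whether the 10 genes moved together over the arrays, regardless of genotype. Their readings spread widely: the median range over the 7 arrays was 3.19 log2 units, beside 1.23 for all transcript clusters, and 7 of the 10 exceeded the 90 percentile of ranges, led by Zfp36 (98.2) and Fos (96.3). Ptgs2 had the narrowest range, at the 21.98 percentile. All the genes but Ptgs2 lay at the 81.1 percentile of signal or above, and their ranges were not compared with clusters of like signal. The wide range of Zfp36 rested on KO replicate 3 alone, and that of Junb on KO replicate 4 alone. The genes did not share one profile. Over the 45 pairs the median Pearson r was -0.06, with 42.2% of pairs above 0, beside a median of -0.00 and 49.9% over all pairs of clusters. An r of 0.7 or more in size was reached by 5 pairs (11.1%), beside 11.4% of all pairs. These were Fos with Dusp1 (0.80), Junb with Ier2 (0.76), Fosb with Dusp1 (0.73), Fos with Fosb (0.71) and Fos with Nr4a2 (-0.95). Whether arrays of equal replicate number are linked is not established, so the 7 arrays may not be fully independent points. Permutation p-values over them do not allow for that.

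**Figure D3:**
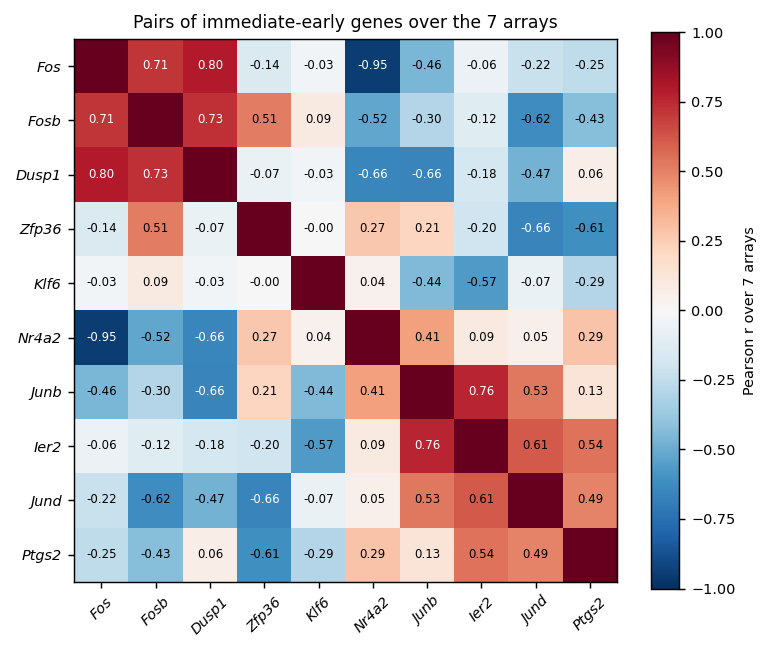
Pearson r over the 7 arrays for each pair of the 10 genes, from -1 (blue) to 1 (red). Fos, Fosb and Dusp1 form a positive block of 0.71 to 0.80, Junb and Ier2 reach 0.76, and Nr4a2 against Fos is -0.95.

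Set against Fos, the archetype of the class, 1 of 9 genes passed an exact permutation p of 0.05 with a positive r and 1 with a negative r, beside 1.9% and 2.49% of 22185 clusters. Dusp1 was the positive one, with r = 0.80 (exact permutation p = 0.0359) and Spearman rho = 0.86 (p = 0.0238, exact permutation). Fosb followed with r = 0.71 (exact permutation p = 0.0526) and rho = 0.64 (p = 0.139). Nr4a2 ran the other way with r = -0.95 (exact permutation p = 0.00317) and rho = -0.86 (p = 0.0238), at the 0.0225 percentile of all clusters. No gene passed after adjustment over all clusters (adjusted p = 0.991 for Fosb, Nr4a2 and Dusp1). Without KO replicates 2 and 4, the arrays farthest from the median of Fos, r was 0.61 for Dusp1, 0.65 for Fosb and -0.92 for Nr4a2. WT replicate 2, at 13.94, was then the only array left below 15.65 on Fos, so these values lean on that array.

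On Fos the arrays formed 2 sets that cut across genotype: KO replicates 2 and 4 and WT replicate 2 at 13.00 to 13.94, and the other 4 at 15.65 to 16.96. Nr4a2 read 16.56, 15.77 and 14.75 on the low-Fos arrays and 12.99 to 13.41 on the high-Fos arrays. The negative r therefore mainly reflects the contrast between these sets, and each holds too few arrays for an r of its own. Leaving out any one array kept r for Fos and Nr4a2 between -0.97 and -0.94, but each time left arrays of both sets. The r of Dusp1 with Fos stayed at 0.69 or above, and lost the exact permutation threshold in 6 of the 7 cases, where fewer orders are also available. Without KO replicate 4, the r of Junb with Fos was 0.29 in place of -0.46 and that of Ier2 0.53 in place of -0.06. Without KO replicate 3, that of Zfp36 was 0.54 in place of -0.14 and that of Fosb 0.91 (exact permutation p = 0.00139).

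**Figure D4:**
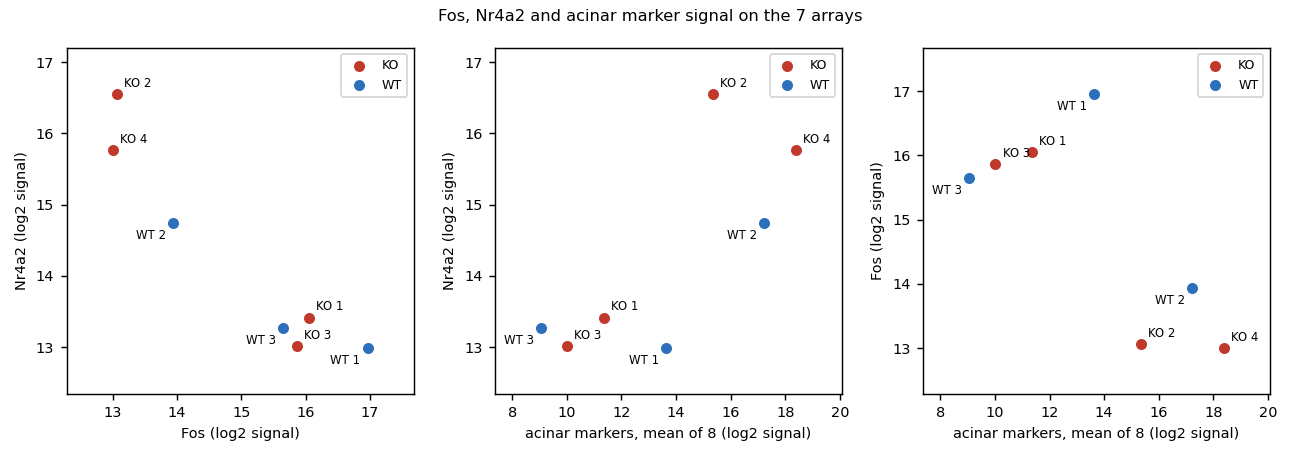
Log2 signal of Nr4a2 against Fos (left), Nr4a2 against the mean of 8 acinar markers (middle) and Fos against that mean (right), with KO arrays in red and WT arrays in blue. KO replicates 2 and 4 and WT replicate 2 have Fos at 13.00 to 13.94, Nr4a2 at 14.75 to 16.56 and the highest acinar means, 15.35 to 18.39.

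The low-Fos, high-Nr4a2 arrays were also the 3 with the highest acinar marker signal, and their acinar means of 15.35 and 18.39 on KO arrays and 17.22 on the WT array were not matched elsewhere. All 8 measured acinar markers had a negative r with Fos (median -0.73) and all 8 a positive r with Nr4a2 (median 0.72). Against the acinar mean, Nr4a2 had r = 0.76 (exact permutation p = 0.0625) and rho = 0.64 (p = 0.139), and Fos r = -0.74 (exact permutation p = 0.0736) and rho = -0.61 (p = 0.167). No member of the 10 passed against it, beside 4.61% of 22178 clusters in the positive and 4.58% in the negative direction. The share of acinar RNA in the readings of Fos and Nr4a2 was not tested.

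Most other early-response genes had a positive r with Nr4a2 and a negative r with Fos. Of 23 other immediate-early transcription factors, 3 had a positive r with Fos (median -0.56) and 20 a positive r with Nr4a2 (median 0.60). Against Fos, 1 of them passed 0.05 with a positive and 3 with a negative r, beside 1.9% and 2.49% of all clusters. Against Nr4a2, 7 passed with a positive and 0 with a negative r, beside 2.41% and 1.97%. Nr4a2 was picked for this comparison after its pattern was seen, and it is itself strongly opposed to Fos, so the counts against both genes are not separate evidence. The positive one with Fos was Egr1 (r = 0.72, exact permutation p = 0.0409), a zinc-finger factor. It read 19.45, 18.49, 18.49 and 17.57 on KO arrays and 18.96, 18.59 and 18.76 on WT arrays, close to the upper limit of the deposited scale at 19.93. Those opposed to Fos included the NR4A receptor Nr4a3 (r = -0.83) and the bZIP repressor Nfil3 (r = -0.85). Nr4a3 read 5.33, 8.57, 5.28 and 8.25 on KO arrays and 5.36, 8.18 and 3.13 on WT arrays, high on the same 3 arrays as Nr4a2. Genes named for their r were chosen after their values were seen.

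Among 34 feedback and signalling genes, 6 had a positive r with Fos (median -0.39) and 28 with Nr4a2 (median 0.37), beside 51.0% and 48.4% of all clusters. Against Fos 1 passed 0.05 with a positive and 7 with a negative r (1.9% and 2.49% of clusters), and against Nr4a2 8 with a positive and 1 with a negative r (2.41% and 1.97%). Dusp5, a nuclear ERK phosphatase, read 10.68, 11.72, 11.05 and 12.28 on KO arrays and 10.43, 11.47 and 11.44 on WT arrays, the exact reverse of the order of Fos (r = -0.91, exact permutation p = 0.00337; rho = -1). Dusp1 and Dusp5, both MAP kinase phosphatases, thus had opposite signs against Fos. Gadd45b, a stress-response gene, had r = -0.89 with Fos and Spry2, an inhibitor of receptor tyrosine kinase signalling, r = 0.88. Among the 11 other AP-1 and small Maf subunits, Jun had r = 0.74 with Fos (exact permutation p = 0.0714), while Fosl2 had r = -0.84 and 0.89 with Nr4a2.

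The acinar mean also moved with several of these genes. Of the 23 other early transcription factors, 10 passed 0.05 against it with a positive r and 0 with a negative one, beside 4.61% and 4.58% of all clusters. Of the 34 feedback and signalling genes, 4 passed with a positive and 2 with a negative r. The early transcription factors that passed included Nfil3 (r = 0.95), Egr4 (0.94), Bhlhe40 (0.93), Nr4a3 (0.91) and Csrnp1 (0.91). The AP-1 subunits Fosl1 (0.96) and Fosl2 (0.97) passed too. The smallest of these adjusted p-values over all clusters was 0.253. β-cell markers ran the other way, with 7 of 8 at a positive r with Fos and 1 of 8 with Nr4a2; Ins2, at the upper limit on all 7 arrays, has no r. Whether these genes read higher because of acinar RNA or in β-cells of the same pools was not tested.

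**Figure D5:**
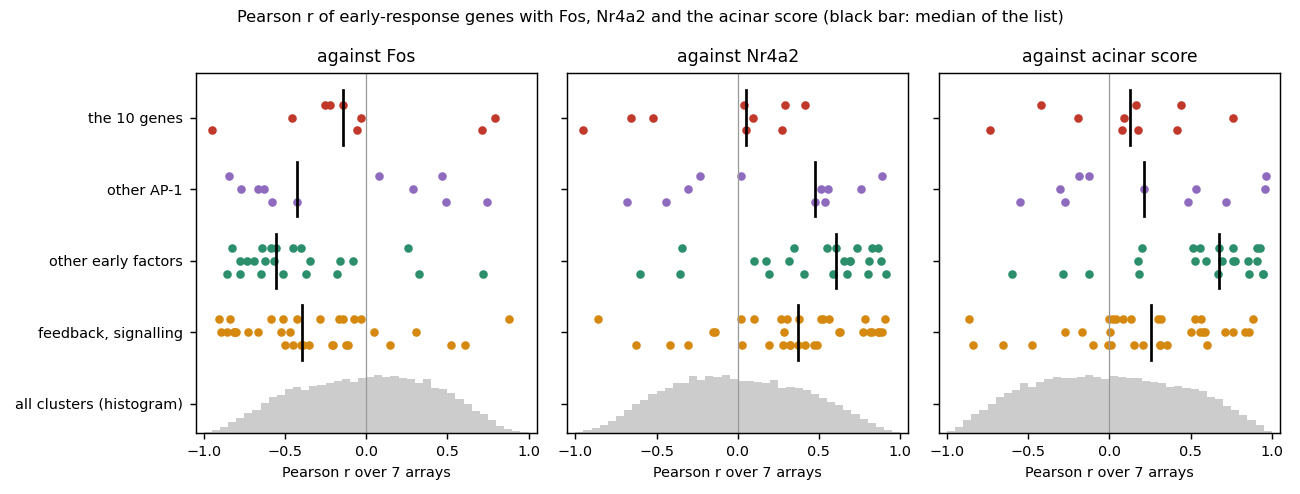
Pearson r over the 7 arrays with Fos (left), Nr4a2 (middle) and the acinar mean (right) for the 10 genes and 3 lists of related genes, 1 point a gene, with the median of each list (black bar) and a histogram of all clusters scaled to its own peak (grey). Medians of the other early factors lie at -0.56, 0.60 and 0.67 in the 3 panels.

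Between genotypes, no gene of the related lists passed the adjusted threshold. The 11 other AP-1 and small Maf subunits had a median of 0.12 with 0 past an unadjusted p of 0.05 in limma. The smallest p-values there belonged to Batf, a bZIP factor of lymphocytes (0.93; exact permutation p = 0.229), and the small Maf protein Mafg (-0.44; p = 0.429). Of the 23 early transcription factors 13 averaged higher in KO and 10 lower (median 0.11), with 0 past the threshold. Myc, a growth regulator, came nearest, with 7.39, 5.30, 7.30 and 6.20 on KO arrays and 5.69, 5.30 and 4.99 on WT arrays, a difference of 1.22 ± 0.53 (limma p = 0.0509; exact permutation p = 0.114). Only KO replicate 2 overlapped WT. Hes1, a Notch target, differed by -0.35 (exact permutation p = 0.0571). Cebpb was the only one of the 23 with all KO arrays above all WT arrays, beside 1.98% of all clusters. It read 6.41, 6.49, 6.84 and 6.58 on KO arrays and 6.00, 6.37 and 6.39 on WT arrays. The difference was 0.32 (exact permutation p = 0.0571), and Cebpb was named after its values were seen. The 34 feedback genes had a median of 0.03, and Phlda1 (-1.34; exact permutation p = 0.2) and the kinase Plk2 (0.60; p = 0.0857) had the smallest p-values.

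Of 17 measured upstream kinases and transcription factors, 1 passed the unadjusted threshold upward, beside 1.01% of all clusters. This was Elk3, a ternary complex partner of SRF that can repress Fos. It read 9.68, 8.61, 8.63 and 8.12 on KO arrays and 8.53, 7.26 and 7.20 on WT arrays, a difference of 1.10 ± 0.47 (limma p = 0.0487, adjusted p = 1; exact permutation p = 0.143). KO replicates 1, 2 and 3 lay above all WT arrays. Of 14 genes of the prostaglandin pathway, 1 passed downward, beside 1.17% of all clusters. This was Ptges, the synthase downstream of Ptgs2 that makes prostaglandin E2. It read 5.82, 6.42, 5.72 and 5.94 on KO arrays and 6.92, 6.56 and 6.38 on WT arrays, a difference of -0.65 ± 0.25 (limma p = 0.0358, adjusted p = 1; exact permutation p = 0.0857). Only KO replicate 2 lay above the lowest WT array, so Ptgs2 and Ptges differed between genotypes in opposite directions, neither past the adjusted threshold. Heat shock genes, which also respond to cell handling, had 5 of 11 members higher and 6 lower in KO (median -0.01), 0 past the threshold. Hspa1b (0.95; exact permutation p = 0.229) and Hspa1a (0.78; p = 0.343) led them, near-identical copies whose signals need not be separate.

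The mean profile of the 10 genes described none of them closely, with r between -0.26 (Klf6) and 0.71 (Ier2) although each gene is part of the mean. Outside the 10, the genes closest to that mean over the 7 arrays were Mta1, a subunit of the NuRD chromatin complex (r = 0.97), Tatdn3 (0.93), Mitd1 (0.93), Ctf2 (0.91), Kif22 (0.88), Atg14 (0.87), Mplkip (0.87), Zfp865 (0.86), Pex11a (0.85) and Rhbdd3 (0.85). They were picked as the highest r among many clusters over 7 arrays, and r of this size was not set against chance. Their unadjusted limma p between genotypes lay between 0.239 and 0.938. The mean profile itself differed by only 0.06 log2 units between KO and WT. Genes chosen to follow it could hardly separate the groups, so these p-values carry no result.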

How the data were processed

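Total RNA from FACS-sorted GFP+ β-cells was hybridised to Affymetrix Clariom S arrays, 1 array per pool of animals. The authors deposited log2 signals per transcript cluster. Expression Console and MAS5 (Affymetrix) stand in the submitters' processing notes without versions and GeneSpring in the methods, and none is said to have made these values. Deposited values ran from 2.24 to 19.93, with up to 18 clusters of an array at the upper limit, where differences cannot be measured. Of 22198 clusters 19565 carry 1 gene symbol in the platform annotation and 2633 none.

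Values were quantile normalized and KO was compared with WT by limma 3.58.1 (R 4.3.3), two-sided, with Benjamini-Hochberg adjustment over all clusters, beside two-sided exact permutation tests over 35 splits of the arrays. Pearson and Spearman correlations used exact two-sided permutation over 5040 orders. Clusters without spread were left out, as were the partner gene or the acinar markers themselves. Scripts were tested on simulated data. The correlations between equally numbered arrays were all over 0.1, so the number entered as a block in an alternative, though the pairing is not established. KO replicate 4 is alone in its block, so the block estimates are those without that array. Other alternatives were the deposited values, median centring, cyclic loess, filters on dim clusters, trended robust variances, array weights, the acinar mean as covariate, the methods' t-test, the 4 arrays that did not stand apart, and each array left out. Using Nr4a2 and the acinar mean as partners of correlation was added after seeing the data. Members and lists were chosen with earlier results of these data known. All 10 genes were named, in each related list those past an unadjusted p of 0.05 or else the 2 with the smallest p, and the 10 genes nearest to the mean profile. The number of arrays limits the precision.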

Additional observations from a re-analysis of the deposited data

Results flagged for a closer look

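On the 4 KO arrays, 3 genes had one reading far from the others by Dixon's criterion, the gap to the nearest reading as a share of the whole range. The share was 0.913 for Junb, with KO replicate 4 high at 10.63, 0.913 for Zfp36, with KO replicate 3 low at 9.37, and 0.961 for Hspa1a, with KO replicate 4 high at 15.30. Of 20 genes so examined, chance would give about 1. Both arrays stood apart over the whole transcriptome as well, and the part of that in these readings was not tested.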

How the results depend on the processing

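No cluster passed the adjusted threshold under any alternative, including each array left out (0 to 0). The number at an unadjusted p below 0.05 was 484, and 311 and 177 where dim clusters were dropped at the 25th percentile and at the median of signal, which tests fewer clusters; it was 300 to 697 with each array left out, lowest without WT replicate 3. The number among the 10 genes was 0 with deposited values, median centring, cyclic loess, both filters, trended robust variances, array weights, the acinar covariate and the 4 arrays that did not stand apart, and 0 to 1 with each array left out. It was 1 with the replicate number as a block (Ier2, 0.92) and under the methods' t-test (Ptgs2 and not Ier2). The median difference of the 10 genes was -0.32 above the median of signal, which leaves out Ptgs2, -0.23 in the 4 arrays, and -0.18 to 0.40 with each array left out, highest without WT replicate 1. Dusp1 turned to 0.23 under the block and Jund to -0.24 in the 4 arrays; with single arrays left out Dusp1 ran from -0.87 to 0.32. The block changed no other call.

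The median r over pairs was 0.0088 with median centring, -0.11 with group means removed and -0.15 to -0.0062 with each array left out. Against Fos, Klf6 had r = 0.11 with deposited values and 0.15 with median centring, and Zfp36 0.0088 with median centring. Nr4a2 had r = -0.88 with deposited values (exact permutation p = 0.0115) and -0.85 with median centring (exact permutation p = 0.0212). With each array left out, r with Fos ran from -0.31 to 0.36 for Klf6, -0.44 to 0.54 for Zfp36, -0.63 to 0.29 for Junb, -0.58 to 0.13 for Jund and -0.39 to 0.53 for Ier2. Nr4a2 passed 0.05 against the acinar mean with deposited values (exact permutation p = 0.0413), median centring (0.0401) and without KO replicate 2 (0.0333). The causes were not tested. Each gene had 1 cluster, so averaging over clusters was not run.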
